A study of Rattus norvegicus with 6 samples.

Results

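Kit, its ligand and the products of mast cells were followed on arrays of the rat metrial gland, the maternal tissue that lies under the placenta and that trophoblast invades. The 10 genes Kit, Kitlg, Cma1, Mcpt1, Mcpt2, Mcpt10, Tpsb2, Cpa3, Ms4a2 and Hdc were chosen by name. Every probe set (a group of short probes for 1 transcript) that the platform annotation gives to 1 of these genes alone was taken, however low its signal. This gave 13 probe sets for 9 genes, of 31042 probe sets that were not controls (14217 genes). Kitlg had 4 of them and Ms4a2 had 2, numbered here from the highest mean to the lowest, and the other genes had 1 each. Mcpt2 had no probe set under that symbol. The RefSeq gene table for assembly GRCr8 lists rMCP-2, along with rMCP-1, as a synonym of Mcpt1. Mcpt10 also appears on 1 probe set that the annotation shares among Mcpt8l2, Mcpt9, Mcpt10 and Mcpt8, which is given beside the others under no single name.

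Pregnant rats were kept in ambient air (21% oxygen) or at 10.5% oxygen (hypoxia) from gestation day 6.5 to day 13.5, and metrial gland RNA was taken at the end, 3 arrays in each group. The sources used here do not give strain or age. Whether each array is a different animal is not stated in the labels. The p-values therefore rest on the scatter among these arrays, and part of that scatter may be technical. Values are log2 expression, so 1 unit is a doubling. The tissue is a mixture, and a higher signal from more cells of a type cannot be told apart from a higher signal in each cell.

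Kit is the receptor tyrosine kinase for stem cell factor, the product of Kitlg. Mast cells keep Kit into maturity and depend on it for survival, while most other blood lineages lose it as they differentiate. Kit also marks blood progenitors, melanocytes and the pacemaker cells of gut muscle. Mast cells store proteases in their granules: chymases (Cma1, Mcpt1), a tryptase (Tpsb2) and a carboxypeptidase (Cpa3). They also carry the beta chain of the IgE receptor (Ms4a2) and make histamine with the enzyme encoded by Hdc. Mcpt10 lies with Cma1 and Mcpt1 in a protease gene cluster on chromosome 15, beside Mcpt9 and Mcpt8, and the RefSeq table lists GLP II among its synonyms.

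Kit rose in hypoxia and the mast cell proteases did not rise with it past the threshold. Kit was the 1 probe set of the 13 with an adjusted p under 0.05, against 3.46% of all probe sets called in either direction, 2.34% called higher and 1.12% called lower. The other 12, among them all 5 protease probe sets, did not pass. The first Kitlg probe set and Cma1 were higher on every hypoxia array than on any ambient array, with changes of 0.55 and 0.45. Against the label of mast cell genes, the members were mixed: the probe sets of Cma1, Mcpt1, Mcpt10, Tpsb2 and Cpa3 exceeded the bacterial controls on all 6 arrays. Those of Ms4a2 and Hdc lay at the level of these controls, with 1 Ms4a2 value above the highest control of its own array.

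**Figure D1:**
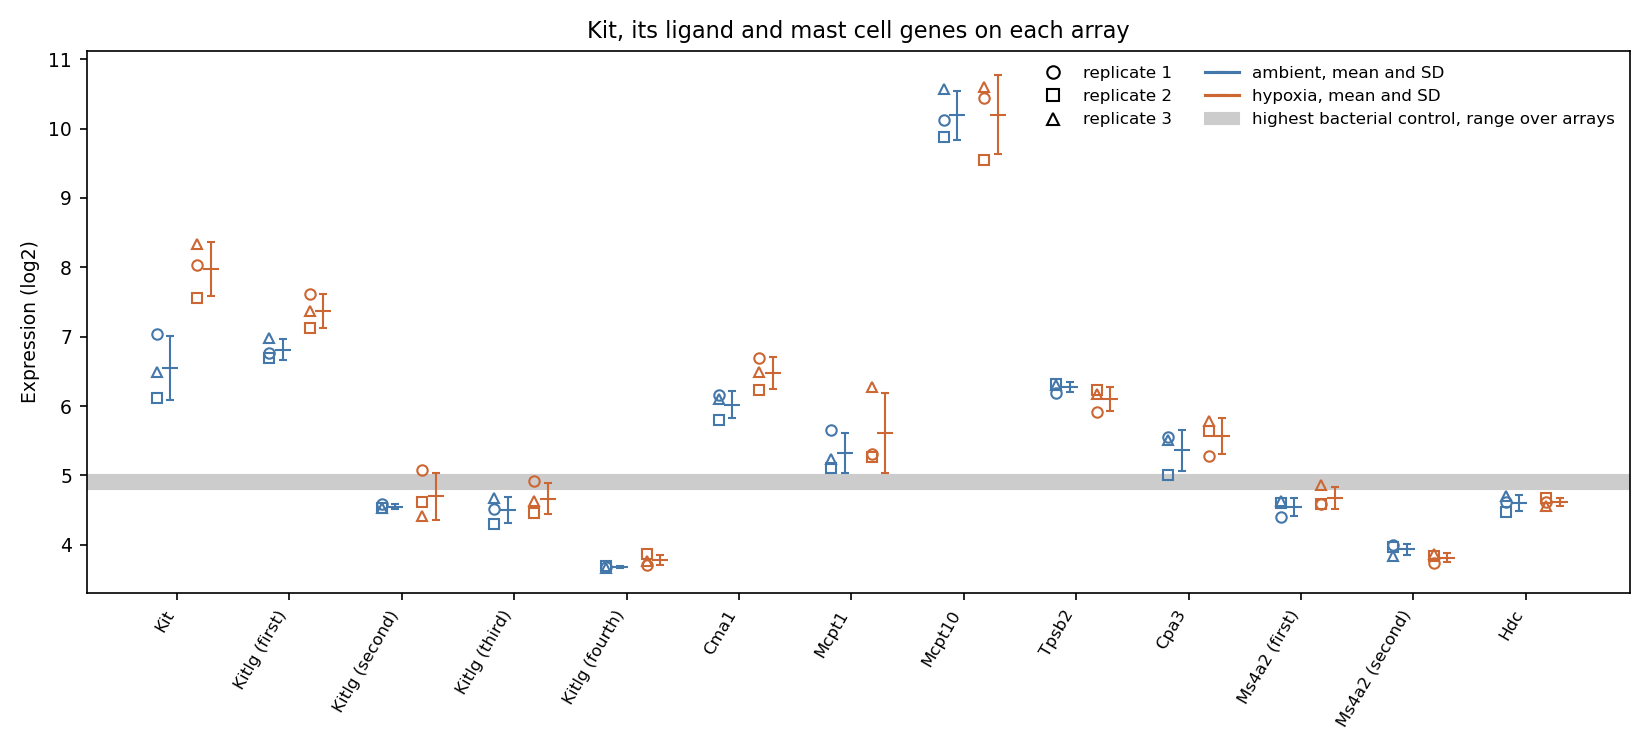
Log2 expression of the 13 probe sets on each array (open symbols by replicate, blue ambient and orange hypoxia), with the mean and SD of 3 arrays beside them. The grey band spans the highest bacterial control on each of the 6 arrays; Kit, the first Kitlg probe set and Cma1 stand above it with groups that do not overlap, while Ms4a2 and Hdc lie within or under it. Levels of different probe sets are not comparable with one another.

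The sequence ahead of the receptor and ligand genes is shown with that of 2 proteases, Cma1 and Cpa3. Of the genes shown, Kit was called and the others were not. The windows of Mcpt1, Tpsb2 and Hdc are counted below but not printed. Any link between the motifs and the changes was not tested. The printed sequences are RefSeq windows on GRCr8, cut to the bases ahead of the outermost annotated start of the gene, on the strand of the gene. Capitals mark matches on either strand to the core of the hypoxia response element (ACGTG or GCGTG) or to GATA, the core bound by GATA factors. The Kit sequence is chr14:32978896-32979062 (minus strand), that of Kitlg is chr7:36782410-36782620 (plus), that of Cma1 is chr15:33390134-33390383 (minus) and that of Cpa3 is chr2:104673254-104673487 (minus).
Kit: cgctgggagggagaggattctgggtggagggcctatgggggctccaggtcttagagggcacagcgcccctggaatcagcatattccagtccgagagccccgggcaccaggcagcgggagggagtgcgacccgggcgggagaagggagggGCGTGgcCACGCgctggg
Kitlg: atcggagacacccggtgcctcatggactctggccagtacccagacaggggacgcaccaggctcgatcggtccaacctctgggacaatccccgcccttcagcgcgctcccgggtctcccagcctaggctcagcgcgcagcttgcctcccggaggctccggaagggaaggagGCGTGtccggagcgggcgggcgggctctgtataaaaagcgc
Cma1: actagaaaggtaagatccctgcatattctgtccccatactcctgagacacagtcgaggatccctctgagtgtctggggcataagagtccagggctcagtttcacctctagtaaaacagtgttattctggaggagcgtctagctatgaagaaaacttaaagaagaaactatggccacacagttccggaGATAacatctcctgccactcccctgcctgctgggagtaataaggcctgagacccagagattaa
Cpa3: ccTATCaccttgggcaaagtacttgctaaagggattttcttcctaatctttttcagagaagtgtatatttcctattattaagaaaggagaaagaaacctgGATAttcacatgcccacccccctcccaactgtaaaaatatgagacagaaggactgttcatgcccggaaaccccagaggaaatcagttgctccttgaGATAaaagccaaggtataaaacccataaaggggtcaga
Windows were held for 7 of the 10 genes, and motifs were counted in the 250 bases before the start that the window table uses. Kit had 2 hypoxia response cores and no GATA, and Kitlg had 1 core and no GATA. Cma1 had 1 GATA, Cpa3 had 3 and Mcpt1 had 1, all with no hypoxia response core, and Tpsb2 and Hdc had neither. No match to one motif overlapped a match to the other. Among all 33469 windows of this length, 36.7% held a hypoxia response core and 55.9% held GATA, beside 2 of 7 and 3 of 7 here. A match is a string of letters and not a measured site, and its absence says only that the letters are not in this window. Windows for Mcpt2, Mcpt10 and Ms4a2 were not analysed here.

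Kit read 7.03, 6.12 and 6.49 on ambient replicates 1, 2 and 3 and 8.04, 7.56 and 8.34 on hypoxia replicates 1, 2 and 3. Every hypoxia array was above every ambient array, and all 6 were above every bacterial control. The group means were 6.55 ± 0.46 and 7.98 ± 0.39 (SD, n = 3 each). The change was 1.43 (SE 0.25, 95% interval 0.87 to 1.99), or 2.69-fold (limma adjusted p = 0.0199). The call was lost without ambient replicate 2 (change 1.21, adjusted p = 0.0589), ambient replicate 3 (1.40, 0.0826) or hypoxia replicate 1 (1.40, 0.0672). With 1 array left out the limma adjusted p ran from 0.0167 to 0.0826. The change stayed between 1.21 and 1.67 with any 1 array left out.

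Kitlg, which encodes stem cell factor as a membrane-bound or shed growth factor, had 1 probe set of 4 with signal above the bacterial controls on all arrays. That probe set, the first, read 6.77, 6.69 and 6.99 in ambient and 7.61, 7.12 and 7.37 in hypoxia, for replicates 1 to 3. The hypoxia arrays were all higher, and hypoxia replicate 2 was above ambient replicate 3 by less than the SD of either group. The change was 0.55 (SE 0.14, 95% interval 0.25 to 0.86), or 1.47-fold, and did not pass (limma adjusted p = 0.0622). It passed without hypoxia replicate 2 (0.67, adjusted p = 0.0427) and with array weights (0.61, 0.0402). With 1 array left out the limma adjusted p ran from 0.0427 to 0.180.

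The other Kitlg probe sets gave no usable level. The second exceeded the highest bacterial control on 1 array, hypoxia replicate 1, at 5.07, and read 4.41 to 4.62 on the other 5. Its change was 0.15 (SE 0.15). The third and the fourth exceeded it on no array, with changes of 0.17 (SE 0.13) and 0.11 (SE 0.062). All 4 changes were positive, but those of the third and the fourth were measured at background. The mean of the 4 probe sets taken as 1 value changed by 0.24 (adjusted p = 0.196).

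**Figure D2:**
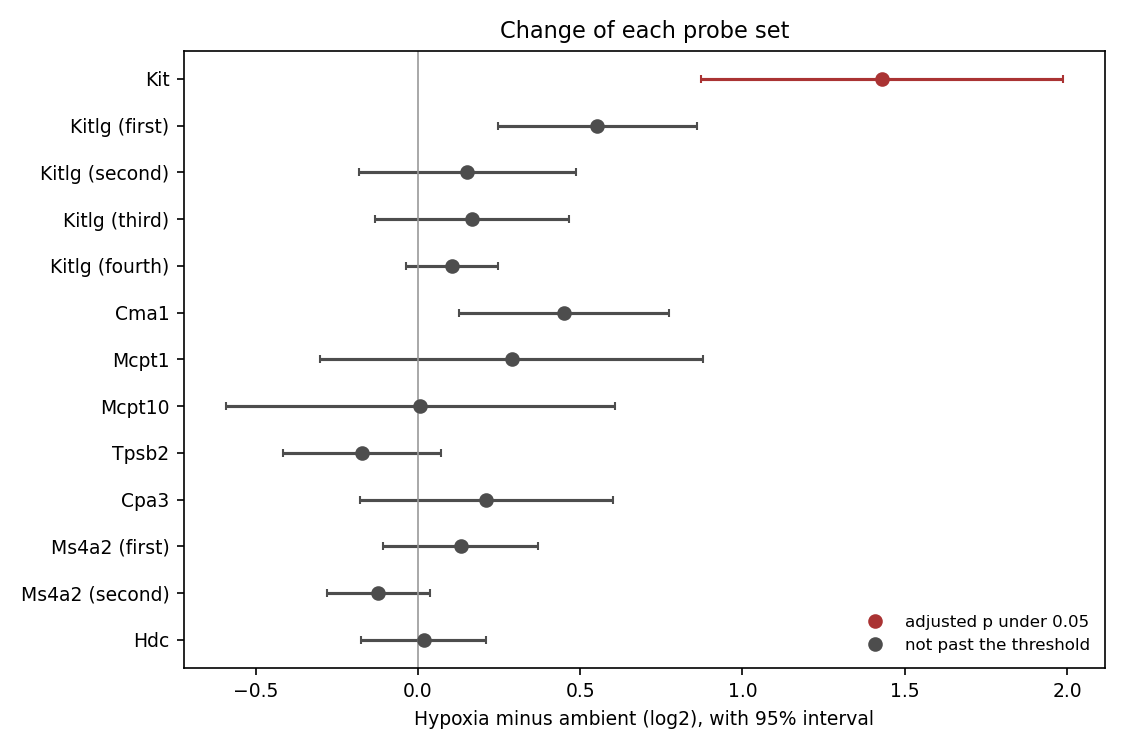
Change of each probe set, hypoxia minus ambient in log2 units, with its 95% interval from limma (n = 3 arrays per group). Kit (red) is the 1 probe set past an adjusted p of 0.05; the intervals of the first Kitlg probe set and of Cma1 also lie above 0, and the other 10 span it.

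Among the 5 protease probe sets, Cma1, the chymase of connective tissue mast cells, had the largest change. It read 6.16, 5.79 and 6.10 on ambient replicates 1, 2 and 3 and 6.69, 6.23 and 6.49 on hypoxia replicates 1, 2 and 3. The groups did not overlap, with hypoxia replicate 2 above ambient replicate 1 by less than the spread within either group. The change was 0.45 (SE 0.14, 95% interval 0.13 to 0.77), or 1.37-fold, and did not pass (limma adjusted p = 0.128). Left-out arrays moved it between 0.34 and 0.57 and the adjusted p between 0.0935 and 0.306.

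Cpa3, the mast cell carboxypeptidase, read 5.55, 5.01 and 5.52 in ambient and 5.28, 5.64 and 5.78 in hypoxia. Hypoxia replicate 1 lay within the ambient range and the other hypoxia arrays above it. The change was 0.21 (95% interval -0.18 to 0.60, limma adjusted p = 0.552). Tpsb2, a beta tryptase, read 6.19, 6.32 and 6.31 in ambient and 5.91, 6.22 and 6.17 in hypoxia. It was the 1 protease with a lower hypoxia mean, by -0.17 (95% interval -0.42 to 0.07, adjusted p = 0.421), with hypoxia replicate 2 inside the ambient range. The upper bounds for Cma1, Cpa3 and Tpsb2 are below the lower bound of 0.8715 for Kit, but that of 0.8785 for Mcpt1 is not. Bounds of separate intervals are not a test of the difference between changes.

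Mcpt1, a rat chymase, read 5.65, 5.10 and 5.23 in ambient and 5.30, 5.26 and 6.28 in hypoxia. One array, hypoxia replicate 3, stood 0.95 above the ambient mean while the other hypoxia arrays lay within the ambient range. The change of 0.29 (95% interval -0.30 to 0.88, limma adjusted p = 0.593) became -0.0426 without that array. Its close relative Mcpt1l1, which the RefSeq table also lists as rMCP-1, read 5.96, 5.61 and 6.00 in ambient and 6.53, 6.00 and 6.71 in hypoxia. Its change was 0.56 (SE 0.18) with an adjusted p of 0.142, and it passed without hypoxia replicate 2 (0.77, adjusted p = 0.0427). Several genes of this cluster are similar in sequence, so a probe set named for one can also bind transcripts of its neighbours, and single values are uncertain.

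Mcpt10 stood well above the bacterial controls on every array, yet did not change with oxygen past the threshold. It read 10.12, 9.88 and 10.57 in ambient and 10.44, 9.55 and 10.61 in hypoxia. The group means were 10.19 ± 0.35 and 10.20 ± 0.57 (SD, n = 3), and the change was 0.0082 (95% interval -0.59 to 0.61). Its direction changed with the scaling, since quantile normalization gave -0.0245. The upper bound of 0.61 is below the lower bound for Kit.

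Leaving out hypoxia replicate 2 changed the direction or the call for the relatives of Mcpt10. The probe set shared by 4 genes read 11.38, 11.35 and 11.67 in ambient and 11.63, 10.84 and 11.80 in hypoxia. Its change of -0.0415 (95% interval -0.53 to 0.44) was 0.25 without hypoxia replicate 2. That change was small, and array weights with no array left out also turned it positive. Mcpt9 read 9.97, 9.96 and 9.93, and then 10.48, 9.74 and 10.62. Its change was 0.33 (adjusted p = 0.389), and without hypoxia replicate 2 it was 0.60 and passed (adjusted p = 0.00828). Mcpt8 read 8.69, 8.76 and 9.22, and then 8.85, 7.58 and 9.24, a change of -0.34 (adjusted p = 0.657) that was 0.15 without hypoxia replicate 2. On all 4 of these probe sets hypoxia replicate 2 was the lowest of the 6 arrays, as it was on 21.4% of all probe sets. Within the hypoxia group all 4 had the order of Kit: replicate 3 highest and replicate 2 lowest.

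**Figure D3:**
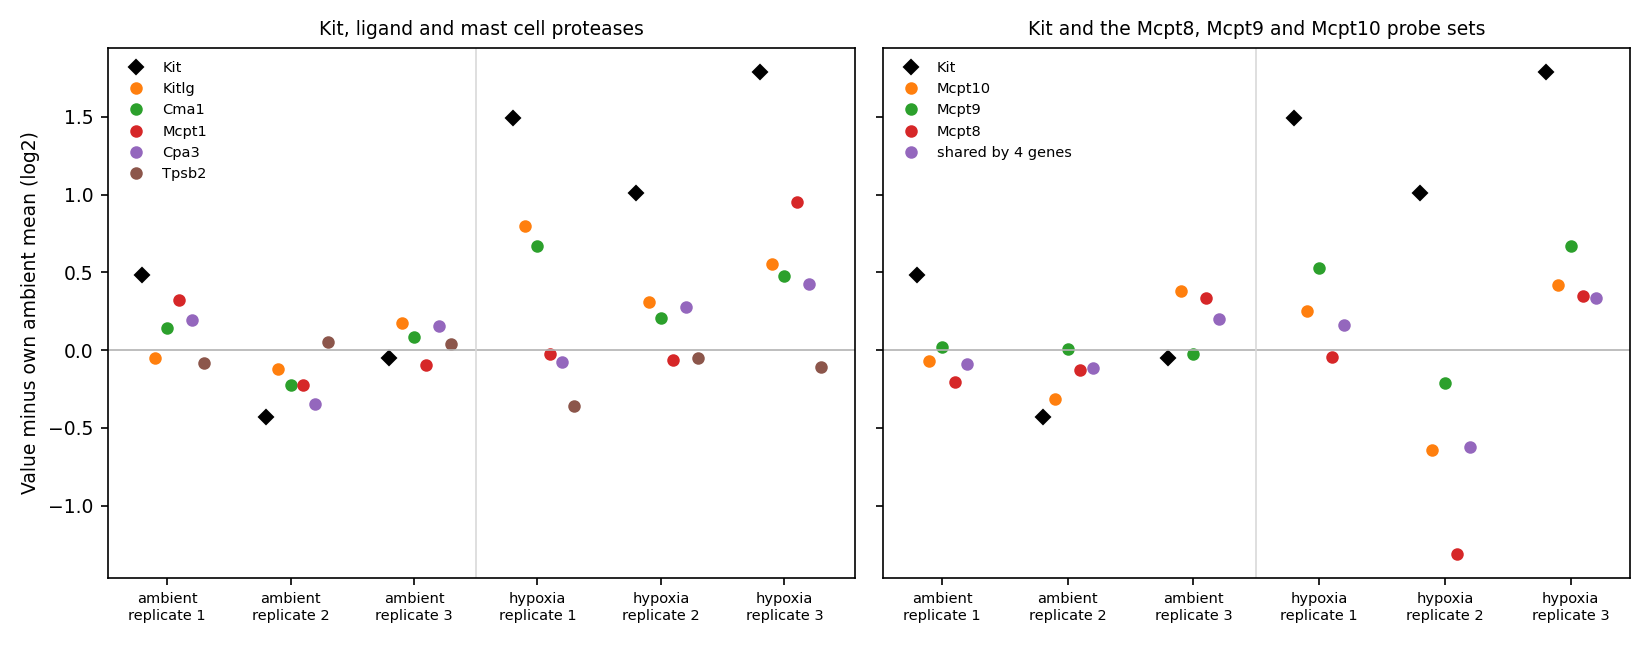
Value of each probe set on each array minus its own ambient mean (log2), for Kit (black diamonds) with its ligand and proteases (left) and with the Mcpt8, Mcpt9 and Mcpt10 probe sets (right). Kit stood 1.01 to 1.79 above its ambient mean on the hypoxia arrays; no protease reached 1.01, and hypoxia replicate 2 was the lowest array for all 4 probe sets on the right.

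Whether the proteases follow Kit was examined as a difference between changes. On each array the log2 value of Kit was subtracted from that of the protease. The change of the protease minus that of Kit was -0.98 for Cma1, -1.14 for Mcpt1, -1.22 for Cpa3, -1.42 for Mcpt10 and -1.60 for Tpsb2. The SD of these differences within a group ran from 0.19 to 0.53 (n = 3). For all 5 the hypoxia arrays lay below all ambient arrays, but so they did for 96.3% of the other 31041 probe sets once Kit was subtracted. The separation comes with the rise of Kit and is not particular to the proteases. Each exact permutation p was 0.1 (two-sided, 0.1 after adjustment over the 5), which is the smallest that 3 against 3 arrays can give, so no such difference could pass 0.05. The 5 comparisons share the Kit values and are not independent of each other.

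Within groups the proteases kept the order of Kit in part. Kit was highest on ambient replicate 1 and lowest on ambient replicate 2, and Cma1, Mcpt1 and Cpa3, 3 of 5, had that same ambient order, as did 16.6% of all probe sets. In hypoxia Mcpt1 and Mcpt10, 2 of 5, had the order of Kit, as did 17.8% of all probe sets. Tpsb2 ran the other way in ambient, with replicate 2 highest. Ambient replicate 2 was the lowest of its group on 9 of the 13 probe sets, against 31.4% of all probe sets, and hypoxia replicate 2 on 7 of 13, against 34.4%. These are counts over 3 arrays of a group and carry no test. No correlation across arrays is given, since the groups stand apart for Kit.

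The remaining mast cell products were at background. The first Ms4a2 probe set read 4.39 to 4.64 in ambient and 4.58 to 4.86 in hypoxia, above the highest bacterial control on 1 array, hypoxia replicate 3. The second averaged 3.93 ± 0.085 and 3.81 ± 0.067 (SD, n = 3), above it on none. Hdc read 4.48 to 4.70 in ambient and 4.56 to 4.68 in hypoxia, also above it on none. Their changes of 0.13, -0.12 and 0.018 compare background with background.

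Of all 13 probe sets, 4 (Kit, 2 of Kitlg and Cma1) were higher on each hypoxia array than on each ambient array, which is 30.8% against 11.6% of all probe sets, and 0 were lower on each, against 13.7% (25.3% in either direction). One of the 4, the fourth Kitlg probe set, was at background throughout. The median change was 0.15, against -0.0195 over all probe sets. A filter that drops the 40% of probe sets with the lowest means would have kept 5 of the 13: Kit, the first of Kitlg, Cma1, Mcpt10 and Tpsb2. Of the probe sets so kept 5.99% were called, and Kit was the 1 member among them.

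Of 38 other genes known from mast cells, 27 were on the array, and 0 rose, 1 fell and 26 did not pass, beside 3.46% of all probe sets called. The 1 that fell was Fcer1g, the signalling chain shared by the IgE receptor and by activating receptors of natural killer cells. It read 12.30, 12.44 and 12.67 in ambient and 11.87, 11.98 and 11.86 in hypoxia, a change of -0.57 (SE 0.09, limma adjusted p = 0.0135). Fcer1a, the IgE-binding chain of that receptor, was at background on every array, as were Mcpt3, Mcpt4, Fcer2, Hpgds and Alox5. The list's median change was -0.0765, and Fcer1g passed under every alternative run.

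The other genes of this list and of Kit signalling that follow were picked after their values were seen. Il1rl1, the interleukin 33 receptor, was higher on all hypoxia arrays, by 0.60 (SE 0.16, limma adjusted p = 0.0791), and a second probe set changed by -0.0744. It passed without ambient replicate 2 (0.78, adjusted p = 0.0411). The transcription factors Gata2 and Mitf, which act in mast cells and elsewhere, were higher by 0.24 (adjusted p = 0.108) and 0.20 (adjusted p = 0.111) with groups that did not overlap. Their second probe sets changed by 0.024 and 0.0625, and those changes turned negative with some arrays left out. The second Gata2 probe set exceeded the highest bacterial control on 1 ambient and 1 hypoxia array. Tpsab1, the alpha and beta tryptase, changed by 0.021 (SE 0.092). Alox5ap and Ltc4s were lower with groups that did not overlap, by -0.23 (adjusted p = 0.260) and -0.0796 (adjusted p = 0.639). Of the 27 genes of this list, 6 were higher and 3 lower without overlap between groups, beside 11.6% and 13.7% of all probe sets. Among the 6 higher, Mcpt3 was at background on every array.

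Downstream of Kit, 44 genes of its signalling and of the shedding of its ligand were listed and 37 were on the array. Of these 0 rose, 1 fell and 36 did not pass, again beside 3.46% of all probe sets called. Pik3cd, a leukocyte catalytic subunit of phosphoinositide 3-kinase, read 9.50, 9.48 and 9.67 in ambient and 9.04, 9.03 and 9.22 in hypoxia, a change of -0.46 (SE 0.08, limma adjusted p = 0.0266). A second Pik3cd probe set changed by -0.16 and did not pass. The call was lost without any 1 array but hypoxia replicate 3, with adjusted p up to 0.102. One of 6 probe sets of Pik3ca, another catalytic subunit, was also lower (-0.76, adjusted p = 0.0436; lost without any 1 ambient array, when 0 probe sets of the list passed), while the one with the highest mean changed by -0.0764.

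The phosphatase Ptpn6 and the kinase Jak2 were lower by -0.49 (limma adjusted p = 0.0758) and -0.52 (0.0589), and Socs6, a suppressor of Kit signalling, was higher by 0.42 (0.0703). Dok1 and Socs1 were lower by -0.45 (0.0628) and -0.18 (0.313). None of these passed. Adam17, the main sheddase of stem cell factor, changed by 0.055 (SE 0.074), and Mmp9, which also releases it, by 0.21 (SE 0.15). Adam10, listed with them, changed by 0.072 (SE 0.18). Adam8 and Adam9, also listed, were lower on every hypoxia array, by -0.49 (limma adjusted p = 0.0873) and -0.38 (0.210). The median of the list was -0.0764, with 12 of 37 genes lower and 3 of 37 higher without overlap between groups, beside 13.7% and 11.6% of all probe sets.

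**Figure D4:**
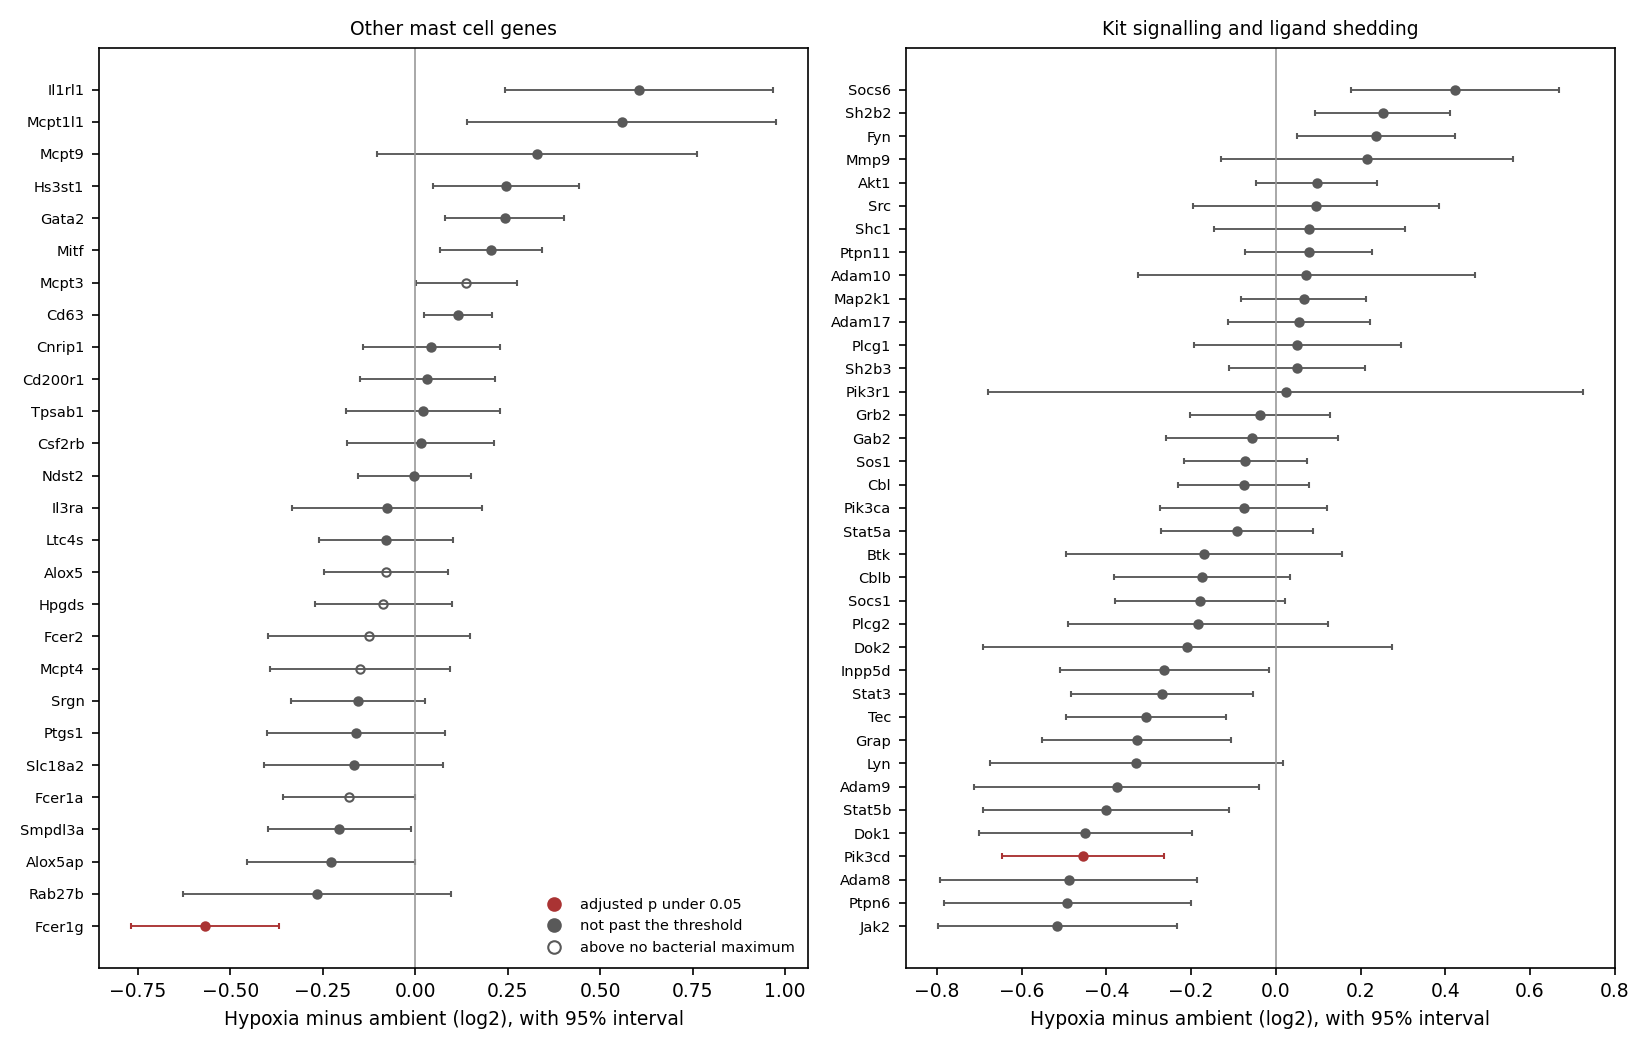
Change, hypoxia minus ambient in log2 units with 95% intervals, for the 27 other mast cell genes (left) and the 37 genes of Kit signalling and ligand shedding (right), each by its probe set of highest mean. Fcer1g and Pik3cd (red) are the genes past an adjusted p of 0.05, both lower; open circles exceeded the bacterial controls on no array.

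Kit also marks cells other than mast cells. Counts of their listed genes are given beside 2.34% of all probe sets called higher and 1.12% called lower. Of 13 genes of blood progenitors and red cell precursors, 2 rose and 11 did not pass: Alas2 by 2.30 and Ahsp by 1.95, both red cell genes. Of the 11, Epor, the erythropoietin receptor, and Gfi1b, a transcription factor of red cell precursors, were lower on every hypoxia array. Their changes were -0.27 (limma adjusted p = 0.170) and -0.16 (0.389). Tal1 and Klf1, also among the 11, were higher on every hypoxia array, by 0.38 (limma adjusted p = 0.0641) and 0.36 (0.152). A second Tal1 probe set changed by -0.0092. Of the 13 genes, 4 were higher and 2 lower without overlap between groups, beside 11.6% and 13.7% of all probe sets. The summed log2 level of the list was 11.74 to 11.87 in ambient and 12.06 to 12.28 in hypoxia, and Gata1 and Nfe2 were at background. Of 6 melanocyte genes 1 rose, Mlana by 0.74 (limma adjusted p = 0.028), with Tyrp1 and Dct at background, and the summed level was 8.39 to 8.47 and 8.56 to 8.89. Mlana was past the threshold without hypoxia replicate 2 or 3 and lost its call without any other 1 array (adjusted p up to 0.107). Of 5 genes of interstitial pacemaker cells limma called 0. Prkcq, lower by -0.50 (limma adjusted p = 0.0717), was the 1 with an unadjusted p below 0.05, against 19.3% of all probe sets. Without overlap between groups 0 were higher and 2 lower. The summed level was 14.09 to 14.27 and 14.05 to 14.20, with the largest share from Gja1 (mean 13.63 on its first probe set). The part of these cells in the rise of Kit was not tested.

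In the same arrays 9 of 10 trophoblast genes rose and 0 fell, with a summed level of 11.36 to 12.73 in ambient and 13.81 to 14.21 in hypoxia. Of all probe sets 2.34% were called higher and 1.12% lower, to be read beside each count of genes that rose or fell in this paragraph. Among endothelial genes 4 of 9 rose (12.86 to 12.94 and 13.11 to 13.21). Of 6 neutrophil genes 2 rose, S100a9 and S100a8, with Camp, Csf3r and Cxcr2 at background. Lcn2, the sixth, was lower on every hypoxia array, by -1.93 (SE 0.62, limma adjusted p = 0.131). Of the 6 neutrophil genes, 2 were higher and 2 lower without overlap between groups, beside 11.6% and 13.7% of all probe sets. The summed level of the neutrophil list was 9.91 to 10.93 and 10.01 to 10.40. Of 11 natural killer cell genes 4 fell and 0 rose (15.95 to 16.13 and 15.71 to 15.85). Of 6 T cell genes 2 fell (9.96 to 10.40 and 9.09 to 9.58), of 6 macrophage genes 1 fell (11.90 to 11.96 and 11.72 to 11.82), and of 7 epithelial genes 2 fell (9.84 to 10.30 and 9.09 to 9.72), with Cldn4 at background. Calls among the natural killer, T cell and epithelial genes and that of the endothelial gene Tek were lost with some arrays left out, with limma adjusted p up to 0.1605. Of 7 smooth muscle genes limma called 0 (14.69 to 15.04 and 14.71 to 15.12). Of these 1, Des, had an unadjusted p below 0.05, against 19.3% of all probe sets. Their part in the rise of Kit was not tested. The 3' minus 5' signal of beta-actin, which grows as RNA breaks down, was 0.50 ± 0.07 in ambient and 0.67 ± 0.10 in hypoxia (SD, n = 3). That of GAPDH was -0.0335 ± 0.0223 in ambient and 0.0039 ± 0.049 in hypoxia. The part of RNA quality was not tested either.

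The genes whose profile lay nearest to that of Kit were found by the root mean square difference over the 6 arrays after each was centred on its own mean, among 9394 genes. Izumo1r, a folate receptor family member, was nearest at 0.14, followed by Jam2, a junctional adhesion molecule, at 0.17, Ampd3, an AMP deaminase, at 0.17, Plet1, known from placenta and epithelia, at 0.18, and the calprotectin subunit S100a9 at 0.21. All 5 rose, by 1.30, 1.43, 1.34, 1.20 and 1.67. Among the members the nearest were the first Kitlg probe set at 0.54, Cma1 at 0.55 and Mcpt1 at 0.61, and Tpsb2 was farthest at 0.90. The measure favours genes that changed by as much as Kit did.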

How the data were processed

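The values are the log2 expression values that the authors deposited in the series table, 1 per probe set and array. MAS5 and Affymetrix Expression Console are named, without a role, per the submitters' processing notes. How background, summarization and scaling were handled is not given in the sources used here. Their log2 scale was taken from the range of values (2.98 to 14.9). Array medians ran from 6.44 to 6.47, and arrays correlated at 0.989 to 0.993 within groups and 0.974 to 0.983 between them. The small number of arrays limits the precision.

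After 57 control probe sets were left out, 31042 were fitted with limma 3.58.1 (lmFit and eBayes with a variance trend, group as the only term, all 6 arrays), with no filter on low means. P-values were adjusted over all of them by Benjamini-Hochberg at a threshold of 0.05. Of the probe sets, 20826 had 1 gene symbol, 436 had several and 9780 had none. Background was read from 27 bacterial control probe sets, highest value 5.00. A listed gene with several probe sets was counted by that of highest mean. Summed levels add the linear values of all probe sets of a list, so the strongest probe sets weigh most. The rule for named genes took all members, up to 4 genes past the threshold from each other list (or the 2 of smallest p where none passed), and the 5 genes nearest to Kit among probe sets with a mean at or above the median of all. The fit was tested on simulated data. The members and lists were chosen with earlier results of these data known.

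The alternatives were median centring, quantile normalization, array weights, no variance trend, a robust trend, an offset of 64, leaving out the lowest 40% of probe sets, the mean of a gene's probe sets, the replicate number as a block, and leaving out each array.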

Additional observations from a re-analysis of the deposited data

How the results depend on the processing

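With 1 array left out, probe sets past the threshold ran from 310 to 1076, against 1073 (257 to 708 higher, 53 to 368 lower), and members from 0 to 2. Array weights gave 2 members, adding the first Kitlg probe set (0.61, limma adjusted p = 0.0402). With 1 array left out, the change ran from 1.21 to 1.67 for Kit, 0.43 to 0.67 for the first Kitlg probe set, -0.033 to 0.30 for the second, -0.0426 to 0.46 for Mcpt1, -0.1956 to 0.33 for Mcpt10, -0.043 to 0.067 for Hdc, -0.68 to 0.15 for Mcpt8, -0.23 to 0.25 for the shared probe set, -0.12 to 0.11 for the second Gata2 probe set and -0.0288 to 0.12 for the second Mitf probe set. Quantile normalization gave -0.0245 for Mcpt10, and array weights gave 0.0295 for the shared probe set. The offset of 64 moved the change minus that of Kit to -0.99 for Mcpt10 and -1.09 for Tpsb2. The cause was not tested.

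The labels state no pairing of arrays by replicate number. Deviations of same-numbered arrays correlated at 0.0124, 0.0706 and 0.0705, and replicate 2 alone was the best match of its own number. With 3 arrays in a group this cannot show whether the numbers pair the arrays. With the number as a block, 1426 probe sets passed (870 higher, 556 lower) and 3 members: Kit (limma adjusted p = 0.00267), the first Kitlg probe set (0.55, 0.0388) and Cma1 (0.45, 0.0459). The block also gave 3 probe sets of the other mast cell genes and 5 of Kit signalling, against 1 and 2 without it. Of the members, 6 probe sets exceeded the bacterial controls on 1 array or none, and their changes are limited by signal.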
